A study of Arabidopsis thaliana with 18 samples.

Results

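AT3G52870 is an Arabidopsis thaliana gene for a protein with an IQ motif, a short stretch that binds calmodulin. Its transcript was followed on Affymetrix ATH1 arrays, where the platform annotation gives it 1 probe set, out of 13513 probe sets that name 1 gene and 22810 in all. The gene was chosen by its measured difference between open flowers of a lej1 mutant and of the wild type, for which it had been called in an earlier analysis of these arrays. Its differences in every comparison that holds the open flowers of the mutant or of the wild type are therefore given as a description with no test. Those among the other groups were tested, with 1 estimate of spread shared by all 6 groups.

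The series asks which transcripts change with the level of AtLEJ1, a protein built of CBS domains. Unopened buds of floral stages 1 to 12, with anthers still closed, and open flowers of stages 13 to 14, at anthesis, were collected from plants 5 weeks old. Plants were wild type (WT), 1 line with AtLEJ1 under the viral 35S promoter, written 35S:AtLEJ1/5-8 in the labels (OE), and the atlej1 mutant (KO), whose allele the labels do not give. The 35S promoter is active in most plant tissues, so expression from it is not limited to the cells that normally use the gene. Each of the 6 groups held 3 arrays, called biological replicates in the labels, without a statement of how many plants went into each.

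Calmodulin is a small protein that senses calcium in the cell. It passes the signal on by binding other proteins, many of them through IQ motifs, and some IQ motifs hold calmodulin even when calcium is low. In flowers, calcium and calmodulin are known from pollen germination, pollen tube growth and responses to stress. The IQ motif genes of plants include the IQD family, whose proteins bind calmodulin and are linked to microtubules and cell shape. What the protein of AT3G52870 does is not annotated in the sources used here.

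LEJ1 has no probe set named for it, and its level was not analysed here, so the genotype labels were not checked with the targeted gene. The median intensity of an array ran from 202 to 232, and the trimmed mean lay between 499.82 and 499.85 on every array. For arrays the number of arrays limits the precision. Of all probe sets, 15110 were bright enough to be tested, that of AT3G52870 among them. In the tapetum, the lining of the anther that is lost as pollen ripens, 4 of the 5 listed genes with a probe set fell from buds to open flowers of WT, where 11.1% of all tested probe sets fell (limma adjusted p under 0.05). Of 4 listed genes of floral organ identity none had a probe set of its own.

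AT3G52870 read 884.9, 713.8 and 788.5 intensity units in the 3 arrays of open KO flowers. In open WT flowers it read 162.3, 127.4 and 91.5. All arrays of open KO flowers lay above all those of open WT flowers, and the lowest of the former was 4.40 times the highest of the latter. The means were 796 ± 85.8 against 127 ± 35.4 (SD, n = 3), a ratio of 6.26. After taking log2(intensity + 16), a scale on which dim probe sets change by less than on the linear one, the difference was 2.53 ± 0.17 (SE). KO arrays lay above WT arrays without overlap for 5.05% of the tested probe sets in open flowers.

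In buds the gene read 332.5, 325.3 and 319.5 in KO. In WT buds it read 187.4, 154.4 and 139.1. Again the genotypes did not overlap, with means of 326 ± 6.51 against 160 ± 24.7 (SD, n = 3) and a ratio of 2.03. These bud arrays had no part in choosing the gene, but the spread used for them is shared by all 6 groups. It holds the open KO and WT flowers that chose the gene, so the test is not fully independent of that choice. The difference of 0.96 ± 0.17 on the log2(intensity + 16) scale had a 95% interval from 0.60 to 1.33. Its unadjusted p in limma was 3.0e-05, the 3rd smallest of 15110. It did not pass when adjusted over all probe sets (limma adjusted p = 0.154), and it passed in none of the 28 alternatives tried (limma adjusted p from 0.0567 to 0.981). The lowest of these came without WT_open replicate 3, which left the difference at 0.96. In this comparison 0.00662% of the tested probe sets were called, and KO arrays lay above WT arrays without overlap for 4.56%.

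Plants with 35S-driven AtLEJ1 read close to WT. In OE buds the values were 151.3, 197.3 and 176.4, with a mean of 175 ± 23.0 (SD, n = 3), and they overlapped with WT buds. The log2 difference was 0.12 ± 0.17, with a 95% interval from -0.25 to 0.48 (limma adjusted p = 0.999, with 0.146% of probe sets called). It was 0.03 without WT_buds replicate 3 or OE_buds replicate 2, 0.23 without WT_buds replicate 1 and 0.21 without OE_buds replicate 1, and 0.32 with replicates 2 and 3 only. In open OE flowers the values were 133.2, 143.7 and 159.7, with a mean of 146 ± 13.4, and they too overlapped with WT. The log2 difference from WT was 0.20 ± 0.17 (SE), in a comparison where 0.682% of probe sets were called. It was 0.01 without WT_open replicate 3, 0.38 without WT_open replicate 1 and 0.43 with replicates 2 and 3 only.

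**Figure D1:**
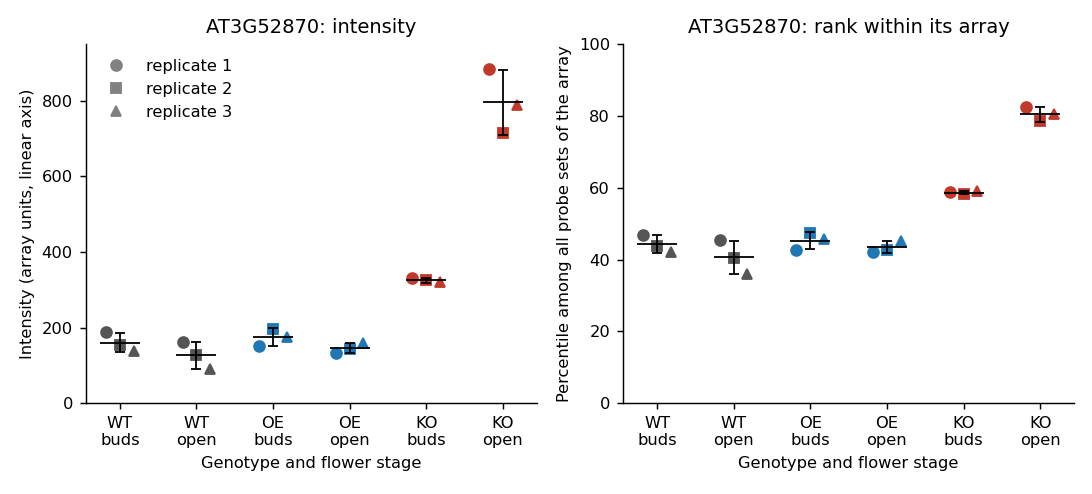
Intensity of AT3G52870 on a linear axis (left) and its percentile among all probe sets of the same array (right), by genotype and flower stage. Points are single arrays with a shape for each replicate number, and bars show the mean and SD of 3 arrays. The 6 KO arrays lie between 319.5 and 884.9, and the 12 WT and OE arrays between 91.5 and 197.3.

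By mean intensity the groups ran, from high to low, as open KO flowers, KO buds, OE buds, WT buds, open OE flowers and open WT flowers. The last 4 overlapped with their neighbours in this order, and their arrays spanned 91.5 to 197.3. KO buds lay above OE buds with no overlap, as 5.25% of the tested probe sets did. Ranked among all probe sets of its array, AT3G52870 stood between the 36.1 and the 47.3 percentile in WT and OE. It stood between 58.2 and 58.9 in KO buds and between 78.4 and 82.5 in open KO flowers. It exceeded the median of its array on all 6 KO arrays and on none of the others, and in open WT flowers 1 array lay below the 40th percentile. The levels of WT and OE thus lay close to the limit for testing. The arrays were least alike in open WT flowers, with a coefficient of variation of 27.9%, against 10.8% in open KO flowers and 2.0% in KO buds.

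In KO, open flowers read higher than buds on all 3 same-numbered pairs, by factors of 2.66, 2.19 and 2.47. The log2 difference was 1.24 ± 0.17 (SE), given as a description. In WT, the open flowers of each pair read 0.866, 0.825 and 0.658 times the buds, and the groups overlapped. The log2 difference was -0.32 ± 0.17, also a description, where 23.4% of probe sets were called. It was -0.13 without WT_open replicate 3 and -0.50 without WT_open replicate 1. In OE the factors were 0.881, 0.728 and 0.905, again with overlap, and the log2 difference was -0.24 ± 0.17, with a 95% interval from -0.60 to 0.13 (limma adjusted p = 0.326, where 31.1% were called). It was -0.15 without OE_buds replicate 2 and -0.13 with quantile normalization or with each array centred on its median.

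The stage difference in OE minus that in WT was 0.08 ± 0.24 on the log2 scale, where 0.179% of probe sets were called. In KO minus WT it was 1.57 ± 0.24. Both are descriptions, since they hold open WT flowers. The KO difference from WT was thus larger in open flowers than in buds by this amount. For the pairs of equal replicate number, KO exceeded WT by factors of 5.45, 5.60 and 8.62 in open flowers and by 1.77, 2.11 and 2.30 in buds.

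**Figure D2:**
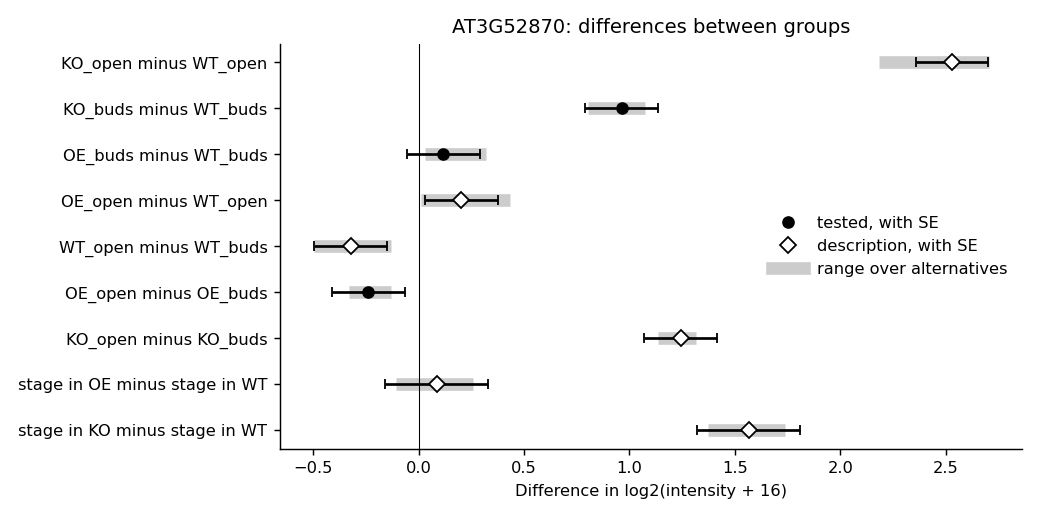
Differences of AT3G52870 between groups in log2(intensity + 16), with standard errors. Filled circles were tested, open diamonds hold the open KO or WT flowers that chose the gene and were not, and grey bars span the values over 28 alternative settings. The differences between OE and WT, and between the stages of WT and OE, lie between -0.32 and 0.20, and the 4 that hold KO lie between 0.96 and 2.53.

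Between KO and WT in open flowers 2 of 15110 probe sets were called (0.0132%), AT3G52870 being the higher one, which repeats how it was chosen. The other, which is unnamed in the annotation, had a larger difference of opposite sign. Which gene it measures was not determined here, and that it measures the targeted gene LEJ1 itself was not tested. It read 233.2, 502.1 and 224.4 in open KO flowers. It read 2655, 3180 and 2985 in open WT flowers. Its KO arrays thus lay far below WT, also in buds, where it read 219 ± 11.2 against 2027 ± 160 (SD, n = 3). In OE it read 2347 ± 116 in buds and 2541 ± 382 in open flowers. For AT3G52870 the difference between KO and WT was larger in open flowers than in buds, at 2.53 against 0.96. For the unnamed probe set they were -3.23 and -3.12. After these the differences of open flowers were smaller, the next being 1.88 ± 0.57 for a further unnamed probe set. A difference of at least 1 on this log2 scale was seen in 30 probe sets (0.199%).

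Few probe sets separated KO from both other genotypes at both stages. All 6 KO arrays lay above all 12 WT and OE arrays for 3 probe sets (0.0199%) and below them for 2 (0.0132%). These were named because there were so few, after their values were seen. For AT3G52870 the lowest KO array was 1.62 times the highest of the others. For AT3G50590 this ratio was 1.09, with KO arrays from 140 to 171 and the others from 74.2 to 129. For AT2G28540 it was 1.00, with KO arrays from 174 to 210. Below the others lay the unnamed probe set of the last paragraph and IDH-V, a subunit gene of mitochondrial isocitrate dehydrogenase, whose KO arrays ran from 1810 to 1986 and the others from 1997 to 2503.

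**Figure D3:**
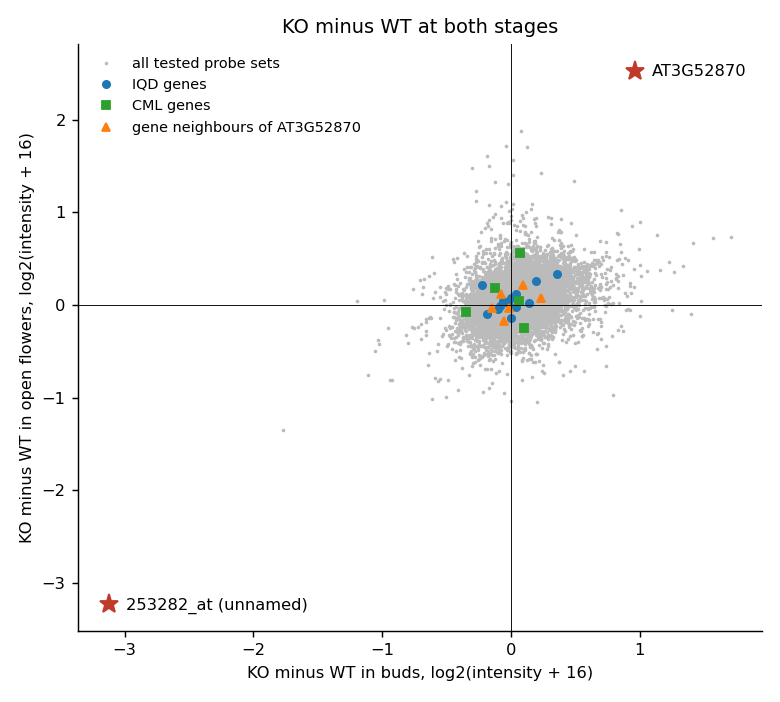
Difference between KO and WT in buds (horizontal) and in open flowers (vertical), both in log2(intensity + 16), for the 15110 tested probe sets. Stars mark AT3G52870 at 0.96 and 2.53 and the unnamed called probe set at -3.12 and -3.23. Coloured points mark IQD genes, CML genes and gene neighbours of AT3G52870, which lie between -0.35 and 0.56 on both axes.

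Other genes of calmodulin signalling were taken from the gene symbols. The IQD family, with 33 listed genes, had 15 with a probe set of their own, of which 13 were tested. Of the calmodulin-like CML genes, whose products bind calcium, 14 were listed, 8 had a probe set and 5 were tested. None of the 7 calmodulin genes CAM1 to CAM7, 3 CAMTA transcription factor genes, 20 cyclic nucleotide gated channel genes, 3 genes of the CBP60 list or the listed IQ-motif gene EDA39 (IQM1) had a probe set of its own.

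None of the 13 IQD and 5 CML genes was called in limma between KO and WT or between OE and WT at either stage, and 0 of them had an unadjusted p under 0.05 in any of these comparisons. For IQD genes the differences between KO and WT ran from -0.14 to 0.34 in open flowers, with a median of 0.02, beside 0.03 over all tested probe sets. In buds they ran from -0.23 to 0.35, with a median of -0.00 (just below 0) beside 0.03. IQD16 had the largest in open flowers, at 0.34 ± 0.42, followed by IQD18 at 0.26. For the 5 tested CML genes the range in open flowers was -0.25 to 0.56, with a median of 0.05. CML38, of the calmodulin-like group, had 0.56 ± 0.43, with 127 ± 61.5 in KO against 76.7 ± 22.1 in WT (SD, n = 3), and CML23 had -0.25. Among the CML genes too dim to be tested, CML43 read 51.1 ± 9.5 in KO buds against 25.9 ± 12.9 in WT. In open flowers CML43 read 61.3 ± 12.2 against 29.6 ± 24.2, and the arrays overlapped. The other dim ones, CML37 and AT1G76640, had lower means in KO than in WT at both stages. None of the 18 tested genes thus differed between KO and WT by as much as AT3G52870 did in either stage. For open flowers this follows from how AT3G52870 was chosen.

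Between the stages members of both families moved. From buds to open flowers of WT 5 of 13 IQD genes fell and 0 rose, where 11.1% of all tested probe sets fell and 12.3% rose. IQD19 fell from 458 ± 52.1 to 124 ± 47.6 (SD, n = 3; log2 change -1.80 ± 0.26, limma adjusted p = 2.6e-05). The gene iqd21 fell from 438 ± 37.2 to 154 ± 6.38, a log2 change of -1.42 ± 0.21. IQD26, IQD31 and IQD24 had log2 changes of -0.93, -0.53 and -0.47. In OE 6 IQD genes fell and 1 rose, and in KO 4 fell and 0 rose (1 rose and 6 fell in KO with a replicate block). Background shares for OE were 16.9% lower and 14.3% higher, and for KO 9.8% and 11.1%. IQD19 had nearly equal stage changes in the 3 genotypes, at -1.80, -1.75 and -1.76.

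Of the 5 CML genes 1 rose and 1 fell in WT. CML41 rose from 80.5 ± 20.9 to 270 ± 45.0 (log2 change 1.58 ± 0.22, limma adjusted p = 2.1e-05). CML42 fell from 432 ± 59.3 to 135 ± 33.7 (-1.58 ± 0.17, limma adjusted p = 8.6e-07). Both were called in the same direction in OE, at 1.38 and -1.57, and in KO, at 1.85 and -1.28. CML38 rose in OE and KO, by 1.27 and 1.55, and had 1.06 in WT, which did not pass (limma adjusted p = 0.0869). None of the tested IQD and CML genes was called in the difference of stage changes between OE and WT or between KO and WT.

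In the RefSeq gene table (TAIR10.1) AT3G52870 lies on chromosome 3. Its coordinates are not printed, because the build behind the array design is not given in the labels. Of the 20 genes within 10 places of it in that table, 7 had a probe set of their own and 6 were tested. No gene in the table overlapped it. The neighbours' differences between KO and WT ran from -0.18 to 0.22 in open flowers and from -0.15 to 0.24 in buds, and none was called in limma (0 had an unadjusted p under 0.05). AT3G52860, 2 places before it, read 226 ± 28.1 in open KO flowers against 231 ± 6.55 in WT (SD, n = 3), a log2 difference of -0.03 ± 0.16. AT3G52900, 3 places after it, read 206 ± 35.4 against 212 ± 38.9, a difference of -0.04 ± 0.16. The largest in open flowers were 0.22 for AT3G52800, -0.18 for AT3G52920 and 0.12 for AT3G52950. These were smaller than the difference of AT3G52870, which in open flowers follows from how that gene was chosen. PAP20, a purple acid phosphatase gene 10 places before it, rose between the stages of WT by 1.37 (limma adjusted p = 0.0019) and of KO by 1.21, and had 0.13 in OE. Its OE and WT stage changes differed by -1.23 ± 0.42, which did not pass (limma adjusted p = 0.369).

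Genes with the most similar pattern were sought among 8201 other tested single-gene probe sets by Pearson's correlation, given without a p because the 18 arrays share groups and replicate numbers and the 3 arrays of open KO flowers stand apart. Over 18 arrays no gene exceeded 0.9. AT5G57790 came first at 0.73, followed by AT1G77800 and AT5G60170 at 0.71, AT3G50590 at 0.70 and AT5G08420 at 0.68. Without the open KO flowers these were 0.39, 0.31, 0.38, 0.54 and 0.51. AT5G57790 read 218 ± 18.8 in open KO flowers and 154 ± 43.8 in WT (SD, n = 3). AT5G60170 read 500.0 ± 43.5 against 367 ± 14.5. Their group means spanned 0.60 and 0.43 on the log2 scale, against 2.53 for AT3G52870, so the likeness is not one of size. In shape the correlations were lower without the open KO flowers. The genes were picked for their correlations over all 18 arrays, and no other group was left out for comparison. The drop therefore does not show on which arrays the likeness rests.

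Over the 6 group means AT5G41100 came first (r = 0.997), then AT5G04460 (0.991), NTRC (0.990), AT5G60170 (0.986) and AT2G24330 (0.964). NTRC encodes a plastid thioredoxin reductase, and its means spanned 0.19 on the log2 scale, less than its spread between arrays: it read 907 ± 163 in open KO flowers and 809 ± 216 in WT. With 6 means, correlations over 0.9 were reached by 38 genes. Over the 18 arrays AT5G41100 had 0.42, AT5G04460 0.54, NTRC 0.17 and AT2G24330 0.48. The strongest opposite patterns over 18 arrays were those of AT1G79390 (-0.81), AT1G04040 (-0.73) and AT1G01940 (-0.71). AT1G04040 read 109 ± 18.2 in open KO flowers against 232 ± 27.1 in WT and 407 ± 86.0 in OE. Between KO and WT none of these 12 genes was called, in buds or in open flowers.

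**Figure D4:**
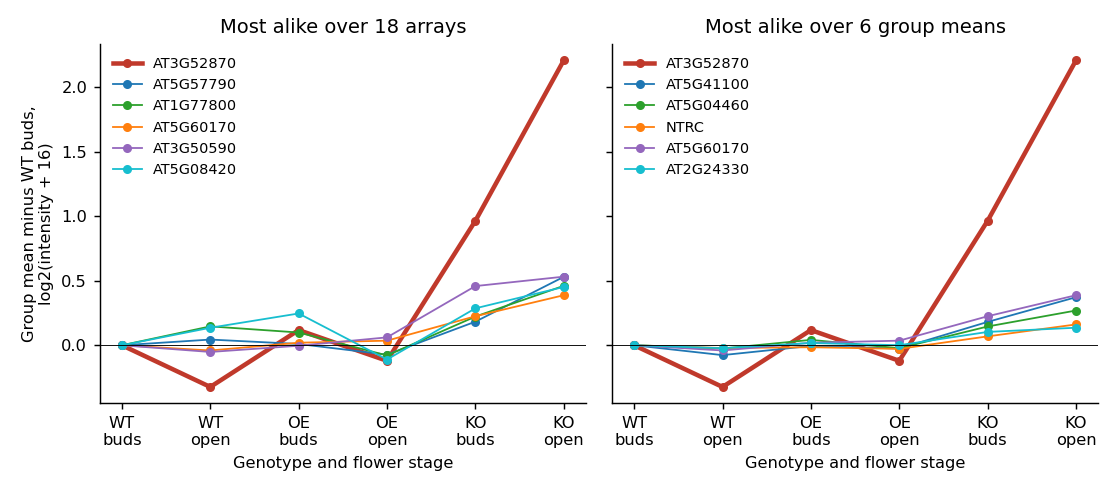
Group means minus WT buds, in log2(intensity + 16), of AT3G52870 (thick red line) and of the 5 genes most alike over 18 arrays (left) and over the 6 group means (right). AT3G52870 spans 2.53, and the others span at most 0.60.

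Markers of other cells and a measure of RNA quality are set beside these values. The summed intensity of the 5 tapetum genes was 2289, 797 and 1402 in open KO flowers and from 955 to 1137 in open WT flowers, against 18897 to 26546 in WT buds, and 0 of the 5 were called in limma between KO and WT in buds or in open flowers. An unadjusted p under 0.05 was reached by 2 of the 5 in open flowers and by 0 in buds, and their median log2 difference in open flowers was 0.98, beside 0.03 over all tested probe sets. The part of tapetum RNA in the values of AT3G52870 was not tested. The 3 arrays of open KO flowers ranked alike in tapetum sum and in AT3G52870 value, with replicate 1 highest and replicate 2 lowest. Their mature pollen sums, described below, ranked in that order too. In open OE flowers the orders were opposite, with tapetum sums of 1080, 877 and 669 in replicates 1, 2 and 3. In open WT flowers replicate 3 had the highest tapetum sum and the lowest AT3G52870 value. Without KO_open replicate 1 the AT3G52870 difference in open flowers was 2.45. With the arrays of replicates 2 and 3 only, it was 2.63 in open flowers and 1.06 in buds. That setting also leaves out replicate 1 of open WT flowers, their highest array. Summed mature pollen genes, 6 with a probe set, ran from 2772 to 4037 in open KO flowers and from 2771 to 2950 in WT, and none of the 6 was called (1 had an unadjusted p under 0.05 in limma). In WT buds the sum ran from 3140 to 3780. From buds to open flowers of WT 2 of the 6 were called higher and 3 lower, so the list did not rise as a whole when flowers opened. In tissue samples such as these, fewer cells of a type and less RNA per cell cannot be told apart.

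Controls that probe the 3' and the 5' end of the same transcript give a ratio that is higher in degraded RNA. Its log2 mean was 0.261 ± 0.024 in open KO flowers and 0.438 ± 0.012 in WT (SD, n = 3) over the 3 revised plant controls. In buds it was 0.240 ± 0.036 and 0.377 ± 0.030. Over the 3 older plant controls the ratio was 1.89 ± 0.15 against 1.80 ± 0.17 in open flowers and 1.79 ± 0.13 against 1.81 ± 0.13 in buds. The revised controls were thus lower in KO than in WT at both stages and the older ones overlapped. In OE the revised ratio was 0.305 ± 0.097 in buds and 0.370 ± 0.045 in open flowers. OE_buds replicate 1 had the lowest revised ratio of all arrays, 0.209. The part of RNA quality in the values of AT3G52870 was not tested.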

How the data were processed

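Each of 18 samples was hybridised to 1 Affymetrix ATH1 array as biotin-labelled cRNA from 5 µg of total RNA, per the labels' protocols. The authors deposited 1 linear intensity per probe set and array. Every array had been scaled to 1 common level, as a trimmed mean (2nd to 98th percentile) showed, with software and target level not given in the sources used here. Groups and replicate numbers come from the titles. The sample descriptions and growth notes name wild type for every sample and were not used.

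The deposited intensity values were turned into log2(intensity + 16). Control probe sets (64), 1 with an empty cell and 7635 dim ones, above the 40th percentile of the array on fewer than 3 arrays, were left out. The other 15110 were fitted with limma 3.58.1 (R 4.3.3) with 6 group means, 12 residual degrees of freedom, a variance trend with intensity and Benjamini-Hochberg adjustment within each comparison, calls being at an adjusted p under 0.05. The fit was tested on simulated data. Tests planned for AT3G52870 on open WT flowers are given without p-values, since those arrays took part in its choice. Gene names are those of the platform annotation, joined to RefSeq by Entrez number for 13436 of 13513 single-gene probe sets. AT3G52870, the lists, the rules for naming genes and the alternatives were chosen with earlier results of these data known. The rules named the 5 most and 3 least similar genes over 18 arrays, the 5 most similar over 6 group means, up to 2 uncalled members of a list, up to 4 chromosomal neighbours and probe sets with a larger KO difference in open flowers. List members called between stages, the dim CML genes and the next largest difference were named after their values were seen. Of 6 loci listed for an IQ-motif family only EDA39, which the gene table describes as such, was kept beside AT3G52870.

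Deviations of same-numbered arrays from the means of their groups correlated across probe sets at 0.106 to 0.599 over all pairs compared, against -0.488 to 0.356 for different numbers. These ranges overlapped, and replicate 1 stood apart most. For open KO against open WT flowers it correlated at 0.582 with its own number and at -0.488 and -0.301 with the others. There KO replicate 3 correlated at 0.284 with WT replicate 3 and at 0.356 with WT replicate 2. In buds these values were 0.215 and 0.121. The numbers thus mark replicate 1 more clearly than 3 pairs. No label states a reason for this. The samples of replicate 1 are numbered in a run of their own in the series, apart from those of replicates 2 and 3. The standard errors, intervals and p-values come from the fit without pairs, and the fit with the replicate number as a block (10 residual degrees of freedom) was an alternative. Python 3.11.15 and matplotlib 3.10.9 made the figures.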

Additional observations from a re-analysis of the deposited data

Results flagged for a closer look

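By group means, the stage difference of AT3G52870 ran in opposite directions in KO and in the other genotypes. In all 3 pairs of equal replicate number open flowers read higher than buds in KO, and in all 3 they read lower in WT and in OE. The replicate numbers do not clearly mark pairs, however. WT_open replicate 1 (162.3) read above WT_buds replicates 2 and 3 (154.4 and 139.1). The KO stage difference exceeded that of WT by 1.57 and that of OE by 1.48 on the log2(intensity + 16) scale. These differences were not tested, because the open KO and WT flowers chose the gene, or, for OE, because the open KO flowers did. The OE stage difference did not pass the test, and the buds and open flowers of both overlapped.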

How the results depend on the processing

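The 9 differences of AT3G52870 were recomputed under 28 alternatives each, made up of 10 other settings and 18 fits that leave out 1 array. No tested difference crossed the threshold in any of them. The difference between KO and WT in open flowers moved by more than the spread between replicates in 1 alternative, a pseudocount of 64 (2.18), which by construction lowers differences of dim probe sets, and otherwise stayed between 2.34 and 2.70. The stage difference in OE minus that in WT turned its sign without OE_buds replicate 1, WT_buds replicate 1 or WT_open replicate 3, and leaving out 1 array gave -0.11 to 0.26, including -0.01 and -0.02. The cause was not tested. The replicate block left every estimate as it was and gave limma adjusted p = 0.120 for KO buds against WT buds, and it changed no call of AT3G52870. Counts of all called probe sets ran over the alternatives from 2 to 8 for KO against WT in open flowers, from 1 to 2 in buds, from 9 to 71 for OE buds, from 39 to 236 for open OE flowers and from 12 to 109 for the OE stage difference, the highest of the last 3 with the block. For WT, OE and KO stages they ran from 2879 to 4364, 3808 to 5828 and 2607 to 3900. WT and OE levels near the 40th percentile limit how well a fall below them can be seen.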
